A study of Rattus norvegicus with 12 samples.

Results

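The activator protein 1 (AP-1) genes of the Fos type (Fos, Fosb, Fosl1 and Fosl2) and of the Jun type (Jun, Junb and Jund), with the immediate early genes Egr1, Myc and Ier3, were followed in INS-1E cells exposed to inflammatory cytokines. These 10 genes were taken by symbol from the 34034 gene symbols of the count table. Their responses to the cytokine challenge took different courses. Jun and Junb rose with the challenge, and the effect of the challenge on both was smaller in cells that had been primed. Myc rose with the challenge in cells that had not been primed, and in primed cells it stayed within the range of the untreated libraries. Fosl2 overlapped the untreated level in challenged cells and was called lower only where both treatments were combined, and Ier3 was highest in that same group. Fos was scarce throughout and had its lowest counts in challenged cells.

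AP-1 is a dimer of basic leucine zipper proteins. Jun proteins pair with each other or with Fos proteins, Fos proteins need a Jun partner, and the dimers bind short palindromic sites near genes of stress, growth and inflammation. Immediate early genes are those that a cell transcribes from factors already present when a signal arrives, usually through MAP kinases and serum response factor, with transcripts that are short lived. Egr1 encodes a zinc finger factor of this kind, Myc encodes a factor that binds E-boxes with Max, and Ier3 encodes a small stress-induced protein that modulates survival and kinase signalling and is not itself a DNA-binding factor. In β-cells, interleukin 1β is known to activate the kinases upstream of Jun.

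INS-1E cells, which derive from a rat insulinoma, are an established line that models the β-cell, and all libraries came from it. The study asked whether a long exposure to little IL-1β changes the response to a later cytotoxic mixture, and sequenced polyadenylated RNA from 4 groups with 3 libraries each. Untreated cells received no cytokine. IL-1βlow cells received 10 pg/ml of IL-1β over 72 h. CYT cells received 100 pg/ml of IL-1β with 5 ng/ml of IFN-γ for 16 h, and IL-1βlow + CYT cells received the first treatment and then the second. Challenged cells were sampled only after 16 h, so that an earlier, passing rise of a short-lived transcript would not be seen. The labels call the libraries of a group biological replicates without saying that they were grown separately, so that the p-values below measure the spread between these libraries.

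The 12 libraries held between 15812640 and 20246806 counts. Levels are given as CPM, library counts scaled by TMM to a common depth, which are not corrected for transcript length, so that levels were compared between groups and not between genes. The 10 β-cell markers summed to between 33935 and 40303 CPM in untreated, 29680 and 34572 CPM in IL-1βlow, 11104 and 11353 CPM in CYT, and 16589 and 21126 CPM in IL-1βlow + CYT libraries. Ins1, at 23994, 22224, 7197 and 11822 CPM on average in the same order, made up most of these sums. In IL-1βlow + CYT cells Slc2a2 (596 CPM) and Slc30a8 (990 CPM) averaged above untreated cells (434 and 899 CPM), and the other markers averaged below them. In CYT cells each marker averaged below untreated cells. Of 26 markers of other islet, exocrine, immune, vascular and stromal cells, 16 had at most 3 counts in every library, with Ptprc, Prss1, Cpa1, Dcn and Cftr at 0 CPM. Among the 7 that were tested, the glucagon gene Gcg averaged 265 CPM in untreated, 210 CPM in IL-1βlow, 37.3 CPM in CYT and 101 CPM in IL-1βlow + CYT cells, and the islet list that holds it summed to between 185 and 367 CPM in untreated and 24.2 and 63.1 CPM in CYT libraries. The fibroblast markers, chiefly Pdgfra, summed to between 12.6 and 16.4 CPM in untreated and 6.18 and 7.31 CPM in CYT libraries. The duct markers summed to between 0.229 and 0.365 CPM in untreated and 6.36 and 9.27 CPM in CYT libraries, which was Muc1 (0.316 and 7.69 CPM on average) with Krt19 at no more than 3 counts. The leukocyte and macrophage markers summed to between 1.07 and 1.72 CPM in untreated, 0.859 and 1.05 CPM in IL-1βlow, 2.33 and 3.59 CPM in CYT, and 4.44 and 5.77 CPM in IL-1βlow + CYT libraries, the last of which is the group where Fosl2 was lowest and Ier3 highest. Its members differed in direction with CYT, with Adgre1 at 0.0191 CPM in untreated and 1.35 CPM in CYT cells and Csf1r at 0.63 and 0.166 CPM. In IL-1βlow + CYT cells both averaged above untreated cells, at 2.79 and 1.43 CPM, and no other member of that list averaged below them. The part of these marker differences in the results below was not tested. In bulk libraries, fewer cells with a transcript and less transcript per cell cannot be told apart.

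A gene was tested where it exceeded 1 CPM in at least 2 libraries. This left 14324 genes and 9 of the 10 genes described here, all but Fosb. Each comparison came from edgeR's quasi-likelihood test over all 12 libraries, with Benjamini-Hochberg adjustment over all genes tested. A gene was called higher or lower at an adjusted p under 0.01 with a log2 fold change beyond 0.6 for IL-1βlow against untreated and beyond 1 elsewhere, which are the study's thresholds.

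**Figure D1:**
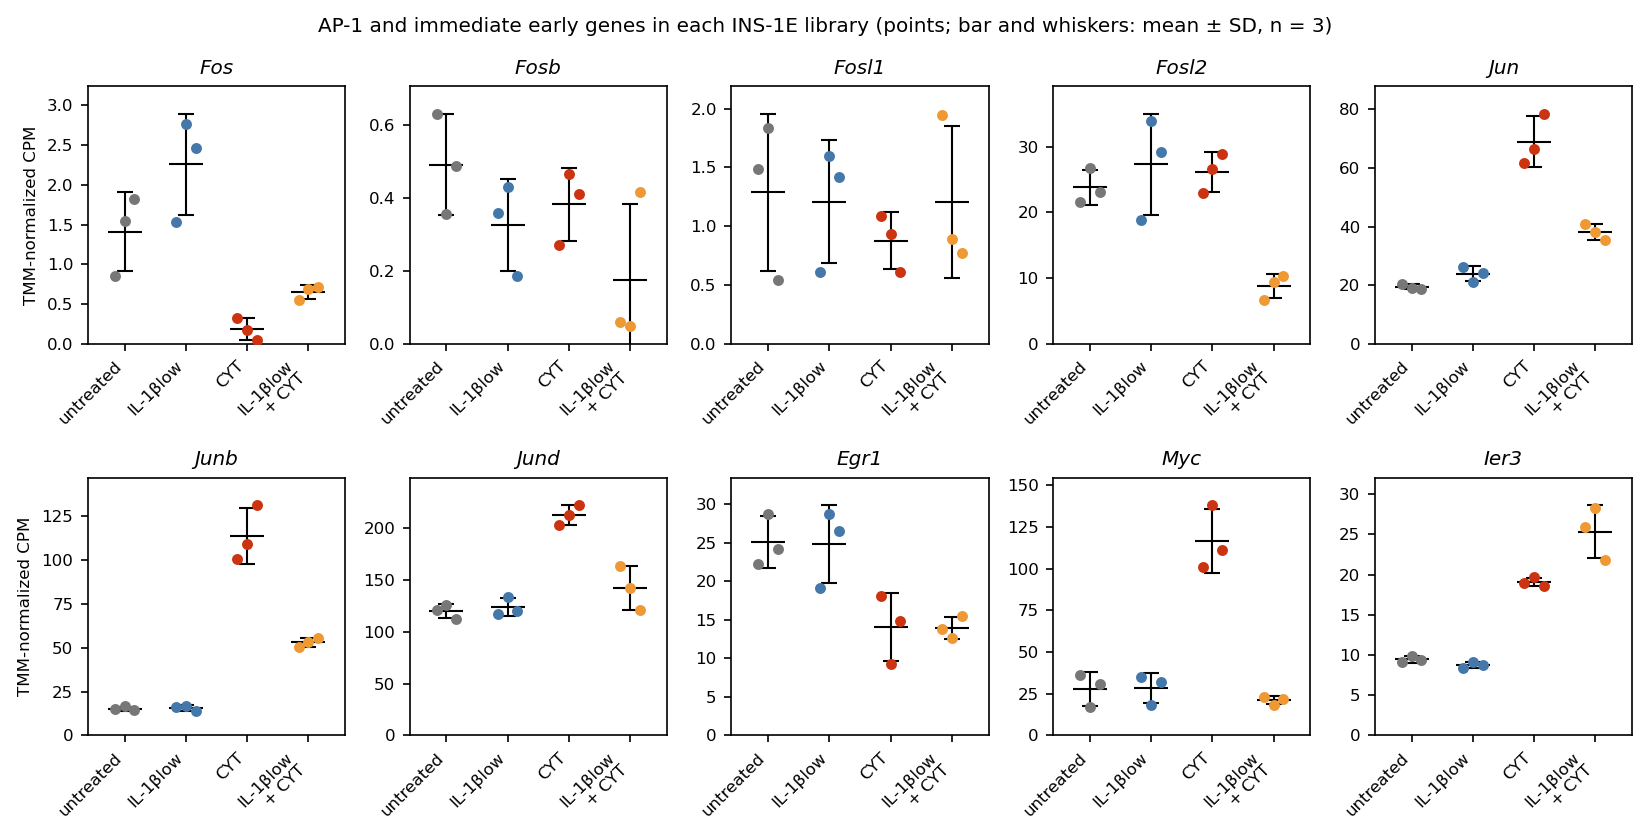
Levels of the 10 genes, as TMM-normalized CPM on the y axis of each panel, in the 3 libraries of each of the 4 groups on the x axis (points, with the mean and SD as bar and whiskers). Jun, Junb, Jund and Myc are highest in CYT libraries, Ier3 is highest in IL-1βlow + CYT libraries, and Fosl2 is lowest there.

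The CYT challenge was compared with untreated cells first. Jun, Junb, Myc and Ier3 rose and Fos fell, so that 4 of the 9 tested genes were called higher and 1 lower. Fos passed the filter only with libraries that received no CYT, so that its call as lower is not independent of the filter. Over all tested genes, 10.0% were called higher and 11.6% lower, 21.6% in all. The median log2 fold change of the 9 genes was 0.83, beside -0.04 over all genes. The libraries of the groups did not overlap in 7 of the 10 genes, beside 69.3% of all genes, so that separation alone was common in this comparison.

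Junb encodes a Jun protein that activates transcription less strongly than Jun and can restrain it. It was at 15.1, 16.6 and 14.2 CPM in untreated cells, 16.0, 17.1 and 13.7 CPM in IL-1βlow cells, 100.3, 109 and 131 CPM in CYT cells, and 50.4, 53.0 and 55.8 CPM in IL-1βlow + CYT cells. The untreated and IL-1βlow libraries overlapped, every CYT library lay above all others, and the IL-1βlow + CYT libraries lay between. Junb rose 7.42-fold with CYT (log2 fold change 2.89 ± 0.12 (SE, n = 3 per group), edgeR quasi-likelihood adjusted p = 1.4e-10), which was the highest rise among the 9 genes. In IL-1βlow + CYT cells it was 2.14-fold lower than in CYT cells (log2 fold change -1.10 ± 0.11, edgeR adjusted p = 2.4e-06).

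Jun encodes the founding member of the family and the main substrate of the Jun N-terminal kinases. It was at 20.4, 19.2 and 18.8 CPM in untreated cells, 26.4, 21.3 and 24.4 CPM in IL-1βlow cells, 61.8, 66.6 and 78.6 CPM in CYT cells, and 40.8, 38.2 and 35.5 CPM in IL-1βlow + CYT cells. No 2 of the 4 groups overlapped, and they stood in the order untreated, IL-1βlow, IL-1βlow + CYT and CYT. Jun rose 3.55-fold with CYT (log2 fold change 1.83 ± 0.11, edgeR adjusted p = 7.0e-09). The log2 difference between IL-1βlow + CYT and CYT cells was -0.85 ± 0.11 (edgeR adjusted p = 2.1e-05), which lies inside the fold change minimum, as does the log2 difference of 0.30 ± 0.11 between IL-1βlow and untreated cells (edgeR adjusted p = 0.27).

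Jund encodes the Jun protein that most cells make without a stimulus. Its level was 121, 126 and 113 CPM in untreated cells, 117, 133 and 120 CPM in IL-1βlow cells, 203, 212 and 222 CPM in CYT cells, and 163, 142 and 121 CPM in IL-1βlow + CYT cells. All CYT libraries were above those of the other groups, and the IL-1βlow + CYT libraries overlapped the untreated ones. The log2 difference from untreated cells was 0.83 ± 0.10 in CYT cells (edgeR adjusted p = 7.0e-06) and 0.25 ± 0.10 in IL-1βlow + CYT cells (edgeR adjusted p = 0.097), and neither reached the fold change minimum.

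The upstream sequences of Junb and Jund are shown because the levels of these genes moved together over the 12 libraries while the size of their response to CYT differed. They were taken from RefSeq (GRCr8), which is a later build than the one the reads were counted on, and 6 of the 10 genes had an entry. The entries are those of Fosb, Fosl1, Fosl2, Junb, Jund and Egr1. Each run covers the 250 bases before the annotated start, in the direction of transcription. Capitals mark the matches found, which are a TATA box (TATAAA) and a CCAAT box (CCAAT) in Junb, and a cyclic AMP response element (TGACGTCA), EGR sites (GCGNGGGCG) and a CCAAT box in Jund.
Junb, chr19:40080876-40081125, + strand: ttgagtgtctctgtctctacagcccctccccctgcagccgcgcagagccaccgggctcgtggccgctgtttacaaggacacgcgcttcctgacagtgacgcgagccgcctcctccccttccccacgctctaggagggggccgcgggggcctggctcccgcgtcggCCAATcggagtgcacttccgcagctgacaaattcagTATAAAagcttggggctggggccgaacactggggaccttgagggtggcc
Jund, chr16:18769772-18770021, - strand: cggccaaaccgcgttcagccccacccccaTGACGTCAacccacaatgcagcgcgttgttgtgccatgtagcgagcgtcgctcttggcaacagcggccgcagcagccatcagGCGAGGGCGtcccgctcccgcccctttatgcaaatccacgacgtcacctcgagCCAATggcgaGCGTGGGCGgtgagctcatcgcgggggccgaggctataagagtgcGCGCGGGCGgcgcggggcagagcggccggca
In Junb the TATA box begins 49 bases and the CCAAT box 85 bases upstream of the start. In Jund the cyclic AMP response element begins 221 bases, the EGR sites 139, 76 and 31 bases, and the CCAAT box 86 bases upstream. Both strands of 33465 RefSeq upstream regions of the same length were searched, and 12.9% held a TATA box, 34% a CCAAT box, 1.59% the cyclic AMP response element and 4.29% an EGR site. The AP-1 site (TGANTCA), which the cyclic AMP response element does not contain and which was in 6.34% of all regions, was in none of the 6 regions of these genes. Nor were the E-box (CACGTG, 5.59%), the STAT site (TTCNNNGAA, 7.67%) or the NF-κB site (3.54%). The CArG box, to which serum response factor binds and which was in 1.5% of all regions, was found in Egr1 alone among the 6, beginning 105 and 83 bases upstream.

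Myc, the E-box factor, was at 36.5, 16.9 and 30.6 CPM in untreated cells, 34.9, 18.5 and 32.1 CPM in IL-1βlow cells, 101, 138 and 111 CPM in CYT cells, and 23.1, 18.4 and 22.1 CPM in IL-1βlow + CYT cells. The CYT libraries stood above all others, and the libraries of the other groups overlapped. Myc rose 4.17-fold with CYT (log2 fold change 2.06 ± 0.25, edgeR adjusted p = 7.5e-06). It was 5.51-fold lower in IL-1βlow + CYT than in CYT cells (log2 fold change -2.46 ± 0.26, edgeR adjusted p = 3.4e-06), and its log2 difference from untreated cells was then -0.40 ± 0.26 (95% interval -0.95 to 0.15, edgeR adjusted p = 0.29).

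Ier3 was at 9.11, 9.88 and 9.36 CPM in untreated cells, 8.41, 9.14 and 8.76 CPM in IL-1βlow cells, 19.0, 19.6 and 18.6 CPM in CYT cells, and 26.0, 28.3 and 21.8 CPM in IL-1βlow + CYT cells. Here the IL-1βlow + CYT libraries were above all CYT libraries, which were above the rest. Ier3 rose 2.02-fold with CYT (log2 fold change 1.01 ± 0.12, edgeR adjusted p = 4.5e-06) and 2.68-fold in IL-1βlow + CYT cells (log2 fold change 1.42 ± 0.12, edgeR adjusted p = 4.8e-07), both against untreated cells. The CYT value was at the fold change minimum, and without untreated replicate 1 or CYT replicate 2 it was 1.00 and 0.99 and was not called. The log2 difference of 0.41 ± 0.11 between IL-1βlow + CYT and CYT cells lay inside the fold change minimum (edgeR adjusted p = 0.0077).

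**Figure D2:**
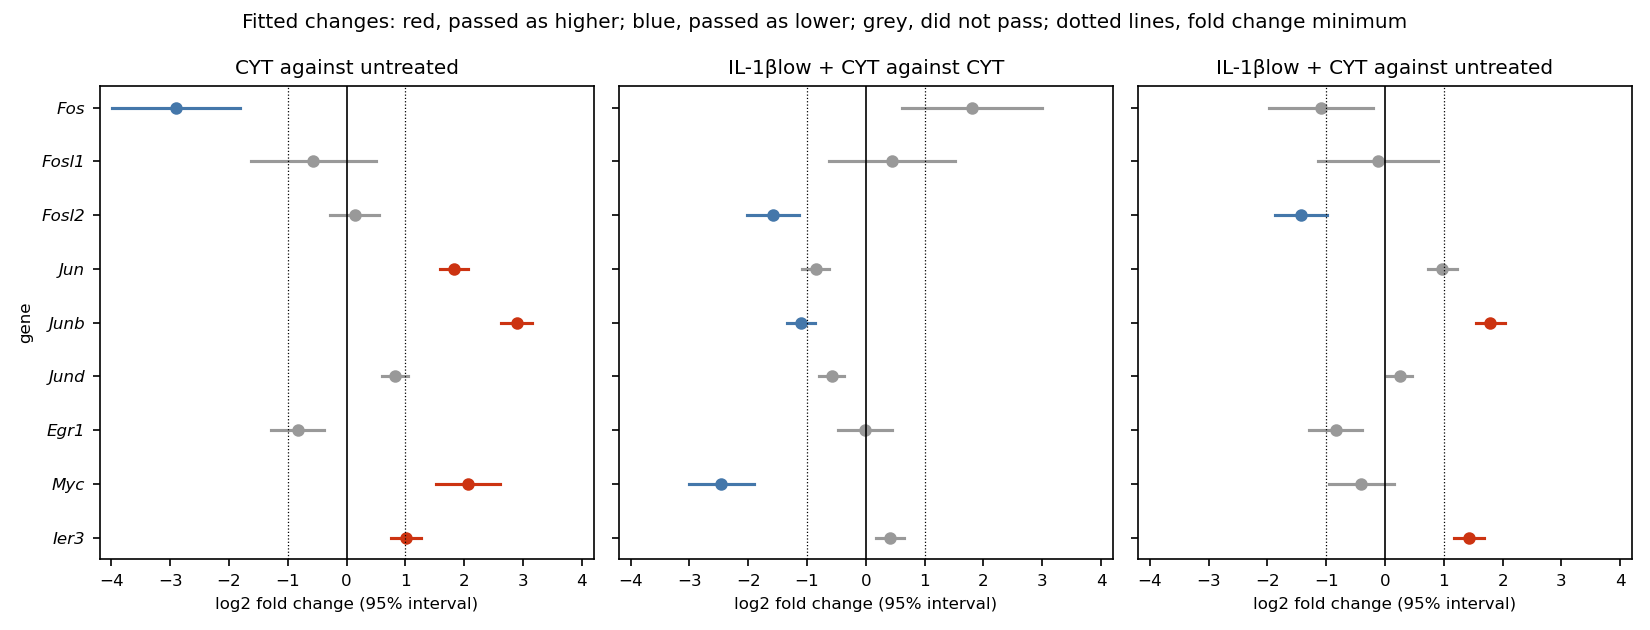
Log2 fold changes (x axis) with 95% intervals for the 9 tested genes (y axis) in 3 comparisons, with dotted lines at the fold change minimum of 1. With CYT, Junb (2.89), Myc (2.06), Jun (1.83) and Ier3 (1.01) passed as higher and Fos (-2.90) as lower, and Myc (-2.46), Fosl2 (-1.57) and Junb (-1.10) were lower in IL-1βlow + CYT than in CYT cells. Fos passed the filter only with libraries that received no CYT.

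Among the Fos genes, only Fosl2 was present at more than 3 CPM in any library. Its product lacks the strong activation domain of Fos. Fosl2 was at 21.5, 26.8 and 23.0 CPM in untreated cells, 18.8, 33.9 and 29.1 CPM in IL-1βlow cells, 23.0, 26.6 and 28.9 CPM in CYT cells, and 6.69, 9.35 and 10.3 CPM in IL-1βlow + CYT cells. The first 3 groups overlapped, and every IL-1βlow + CYT library was below all of them. With CYT the log2 difference from untreated cells was 0.14 ± 0.19 (95% interval -0.28 to 0.55, edgeR adjusted p = 0.56). In IL-1βlow + CYT cells Fosl2 was 2.71-fold lower than in untreated cells (log2 fold change -1.44 ± 0.21, edgeR adjusted p = 1.2e-04) and 2.98-fold lower than in CYT cells (log2 fold change -1.57 ± 0.21, edgeR adjusted p = 2.5e-05).

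The upstream region of Fosl2 is given beside those of Junb and Jund, since this gene did not share their response. It held none of the TATA, CCAAT and cyclic AMP response elements, and the capitals mark an EGR site that begins 249 bases upstream.
Fosl2, chr6:30039270-30039519, - strand: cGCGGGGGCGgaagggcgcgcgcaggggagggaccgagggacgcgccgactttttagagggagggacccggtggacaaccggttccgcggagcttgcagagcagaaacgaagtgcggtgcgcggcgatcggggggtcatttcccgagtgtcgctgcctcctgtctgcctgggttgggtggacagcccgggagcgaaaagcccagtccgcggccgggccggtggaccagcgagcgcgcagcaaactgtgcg
The region was 70.4% G and C, beside 66% in Junb and 68.4% in Jund. The part of the upstream sequences of Junb, Jund and Fosl2 in these responses was not tested.

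Fos, the prototype of the rapidly induced genes, was near the limit of detection, with challenged cells sampled only after 16 h. The raw counts were 15, 26 and 30 in untreated cells, 30, 45 and 40 in IL-1βlow cells, 6, 3 and 1 in CYT cells, and 9, 14 and 12 in IL-1βlow + CYT cells. The CYT libraries were the lowest and the IL-1βlow + CYT libraries were between them and the untreated ones, none of which overlapped. Fos fell 7.46-fold with CYT (log2 fold change -2.90 ± 0.51, edgeR adjusted p = 1.9e-04), and without CYT replicate 1 the log2 fold change was -3.56. It exceeded 1 CPM only in untreated and IL-1βlow libraries, so that its entry into the test depended on the groups where it was high. Its tests between cells with and without CYT are therefore not independent of the filter, and its calls as lower carry that limit. The log2 difference of 1.81 ± 0.56 between IL-1βlow + CYT and CYT cells did not pass (edgeR adjusted p = 0.015), although it did without CYT replicate 1 (2.47, edgeR adjusted p = 0.0082).

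Fosb and Fosl1 were also scarce. Fosb, a close relative of Fos, had between 1 and 11 counts in every library and was not tested, and it overlaps another annotated gene, LOC103691049, in the later build. Fosl1, which like Fosl2 lacks a strong activation domain, was between 0.547 and 1.95 CPM over the 12 libraries with all groups overlapping. Its log2 difference between CYT and untreated cells was -0.56 ± 0.49 (edgeR adjusted p = 0.34, 95% interval -1.62 to 0.50), which leaves a change beyond the fold change minimum possible at this depth.

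Egr1 was at 22.2, 28.8 and 24.1 CPM in untreated cells, 19.1, 28.8 and 26.5 CPM in IL-1βlow cells, 18.1, 9.27 and 14.8 CPM in CYT cells, and 13.7, 12.7 and 15.5 CPM in IL-1βlow + CYT cells. Both groups that received CYT lay below both that did not, and within each of these pairs the libraries overlapped. The log2 difference from untreated cells was -0.83 ± 0.21 in CYT cells (edgeR adjusted p = 0.0033) and -0.84 ± 0.21 in IL-1βlow + CYT cells (edgeR adjusted p = 0.0092), both inside the fold change minimum. Without CYT replicate 1 the first was -1.01 and passed. Between IL-1βlow + CYT and CYT cells the difference was -0.01 ± 0.21 with a 95% interval of -0.47 to 0.44.

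Priming alone was read from IL-1βlow against untreated cells. In the paper's protocol the medium was renewed after the 72 h, and no separate harvest time is given for unchallenged cells. The IL-1βlow libraries may therefore describe cells some time after IL-1β was withdrawn. None of the 9 genes was called by edgeR's quasi-likelihood test, beside 0.433% of all genes, and none by DESeq2 or edgeR's exact test. Jun was the 1 gene with an unadjusted p under 0.05 in the edgeR fit, and the 1 gene of the 10 whose libraries did not overlap, beside 23.7% of all genes. Fos had a log2 difference of 0.67 ± 0.36 (edgeR adjusted p = 0.41, 95% interval -0.10 to 1.45). The difference was 0.19 ± 0.19 for Fosl2, -0.11 ± 0.12 for Ier3 and -0.12 ± 0.48 for Fosl1. For Junb, Jund, Egr1 and Myc it was 0.03 ± 0.12, 0.04 ± 0.10, -0.02 ± 0.20 and 0.03 ± 0.25. The median over the 9 genes was 0.03, beside 0.00 over all genes.

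The next comparison asked how primed and challenged cells differed from cells that were challenged only. It shares the CYT libraries with the comparison of CYT and untreated cells, so that a high CYT value raises one and lowers the other. Fosl2, Junb and Myc were called lower and none of the 9 genes higher, beside 5.92% of all genes called lower and 6.54% higher (12.5% in all). The median log2 fold change of the 9 genes was -0.58 and that of all genes 0.02. The libraries did not overlap in 7 of the 10 genes, 5 of them below and 2 above, beside 54.4% of all genes. The 2 above were Fos and Ier3.

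Against cells that were only primed, IL-1βlow + CYT cells had more Junb and Ier3 and less Fos and Fosl2, which is 2 of 9 called higher and 2 lower, beside 2.92% and 0.963% of all genes and 3.88% in all. The libraries did not overlap in 6 of the 10 genes, beside 27.1% of all genes. Junb was 3.40-fold higher (log2 fold change 1.77 ± 0.12, edgeR adjusted p = 8.4e-08) and Ier3 2.89-fold higher (1.53 ± 0.12, edgeR adjusted p = 3.6e-07). Fosl2 was 3.10-fold lower (-1.63 ± 0.21, edgeR adjusted p = 5.9e-05). Fos was 3.40-fold lower (-1.77 ± 0.39, edgeR adjusted p = 0.0068), but without untreated replicate 2, IL-1βlow replicate 2 or 3, or any 1 of the IL-1βlow + CYT libraries its adjusted p was between 0.011 and 0.032 and it was not called. This call of Fos is also not independent of the filter, which it passed only with libraries that received no CYT. For Jun the log2 difference was 0.67 ± 0.11 (edgeR adjusted p = 7.5e-04), for Myc -0.43 ± 0.26 (edgeR adjusted p = 0.35) and for Egr1 -0.83 ± 0.21 (edgeR adjusted p = 0.016).

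Set against untreated cells, the same IL-1βlow + CYT libraries had Junb (log2 fold change 1.79 ± 0.12, edgeR adjusted p = 4.7e-08) and Ier3 called higher and Fosl2 lower, beside 3.85% of all genes called higher and 2.14% lower (5.99% in all). The libraries did not overlap in 6 of the 10 genes, beside 37.3% of all genes. Jun was at 0.97 ± 0.11 (edgeR adjusted p = 1.7e-05), just inside the fold change minimum, and it passed without IL-1βlow + CYT replicate 3 (1.02). In CYT against IL-1βlow cells, Jun, Junb, Myc and Ier3 were called higher and Fos lower, beside 9.24% and 9.82% of all genes and 19.1% in all, and the libraries did not overlap in 7 of the 10 genes, beside 63.2% of all genes. The limit that the filter sets for Fos holds here too.

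Whether the response to CYT differed between primed and unprimed cells was tested as an interaction, the CYT effect in IL-1βlow cells minus that in unprimed cells. Of the 9 genes, Fosl2, Jun, Junb and Myc had a lower CYT effect in primed cells and none had a higher one, beside 5.20% and 5.48% of all genes and 10.7% in all. The log2 difference of the effects was -2.49 ± 0.36 for Myc (edgeR adjusted p = 1.4e-04) and -1.77 ± 0.28 for Fosl2 (edgeR adjusted p = 3.2e-04). For Jun it was -1.16 ± 0.16 (edgeR adjusted p = 9.8e-05) and for Junb -1.13 ± 0.16 (edgeR adjusted p = 1.6e-04). Jund had a difference of -0.62 ± 0.14 (edgeR adjusted p = 0.0037), inside the fold change minimum. Ier3 (0.52 ± 0.17, edgeR adjusted p = 0.025) and Fos (1.13 ± 0.67, edgeR adjusted p = 0.20) had positive differences that did not pass. For Egr1 the difference was 0.00 ± 0.30 with a 95% interval of -0.63 to 0.64, and its sign turned with RLE factors, with DESeq2 and with other filters on low counts.

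**Figure D3:**
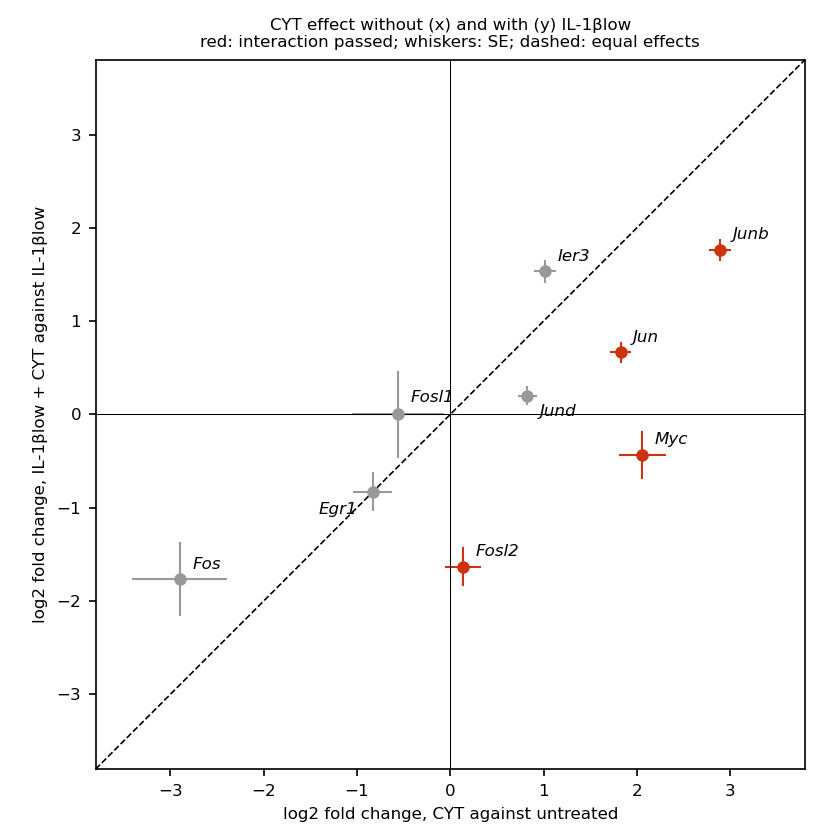
The log2 fold change with CYT in unprimed cells (x axis, CYT against untreated) and in primed cells (y axis, IL-1βlow + CYT against IL-1βlow) for the 9 tested genes, with SE as whiskers and equal effects on the dashed line. Junb, Jun, Myc and Fosl2 (red) lie below the line and passed the interaction test, and Egr1 lies on it.

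Over the 12 libraries the log2 CPM of Jun ran closely with that of Junb (Pearson r = 0.969) and Jund (r = 0.924), while Fosl2 followed neither (r = -0.133 with Jun). Ier3 and Myc had little in common (r = 0.207). These values describe 12 libraries in 4 groups and largely reflect the group means. Among the 11496 tested genes with a mean log2 CPM above 2, other than the gene itself, Junb was most like Dennd2b (r = 0.998), the mitochondrial superoxide dismutase gene Sod2 (r = 0.997) and the adhesion gene Icam1 (r = 0.996). The 3 genes most like Jun were Parp3 (r = 0.991), Micall2 (r = 0.991) and Elf3 (r = 0.990), and those most like Myc were Mtm1 (r = 0.976), the MAP kinase interacting kinase gene Mknk1 (r = 0.975) and Tstd2 (r = 0.968). Ier3 was most like the p38 kinase gene Mapk11 (r = 0.983), the interferon γ receptor gene Ifngr2 (r = 0.979) and Atp11a (r = 0.970). For Fosl2 these were the salt-inducible kinase gene Sik1 (r = 0.933), Rbpms (r = 0.931) and the stress gene Gadd45g (r = 0.915), and for Fos, over 11497 genes, they were Tmem145 (r = 0.969), Rimbp2 (r = 0.967) and LOC120095279 (r = 0.966).

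The partners of these factors were read from a list of 13 other AP-1 and related leucine zipper genes, 12 of which were tested. With CYT, 7 were called higher and 1 lower, beside 10.0% and 11.6% of all genes. In IL-1βlow + CYT against CYT cells none was higher and 5 were lower, beside 6.54% and 5.92% of all genes. The medians over all 12 tested genes were 1.61 and -1.31 on the log2 scale, beside -0.04 and 0.02 over all genes. These medians include Batf, Batf2 and Maf, which passed the filter only with the CYT libraries, and are not independent of the filter. Atf3, a stress-induced factor that often represses, went from 2.87 CPM in untreated and 1.89 CPM in IL-1βlow cells to 65.2 CPM in CYT and 2.74 CPM in IL-1βlow + CYT cells, on average over 3 libraries. It was 22.6-fold higher with CYT (log2 fold change 4.50 ± 0.17, edgeR adjusted p = 7.6e-11) and 23.8-fold lower in primed than in unprimed challenged cells (-4.57 ± 0.18, edgeR adjusted p = 1.4e-09).

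Maff, a small Maf protein without an activation domain, was also highest in CYT cells, with means of 4.36, 5.19, 105 and 12.2 CPM in untreated, IL-1βlow, CYT and IL-1βlow + CYT cells. Its log2 fold changes were 4.59 ± 0.21 with CYT (edgeR adjusted p = 3.4e-10) and -3.11 ± 0.19 between the challenged groups (edgeR adjusted p = 3.1e-08). Unlike Atf3 (log2 difference -0.07 ± 0.20, edgeR adjusted p = 0.84), Maff was still called higher in IL-1βlow + CYT than in untreated cells (1.48 ± 0.21, edgeR adjusted p = 1.1e-04), and the difference between the 2 genes was not tested. Batf, a lymphocyte-associated partner of Jun proteins, had 0 counts in all untreated libraries and a mean of 1.11 CPM in CYT cells, which is at least 6.29-fold higher against a floor of 3 counts per library. Batf2 reached 2.56 CPM in CYT cells and 0.361 CPM in IL-1βlow + CYT cells. Batf, Batf2 and Maf passed the filter only with the CYT libraries, so that no test is given for them, and of the other 9 tested genes of the list 5 were called higher and 1 lower with CYT and 4 lower in primed challenged cells. The 1 gene of the list called lower with CYT was not called without untreated replicate 1.

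Of 34 other immediate early genes, 29 were tested and moved in both directions. With CYT, 8 were called higher and 6 lower, beside 10.0% and 11.6% of all genes, and between the challenged groups 2 were higher and 9 lower in primed cells, beside 6.54% and 5.92%. Among those called lower with CYT, Egr4 passed the filter only with libraries that received no CYT, so that its call is not independent of the filter. The list medians were 0.15 and -0.27, beside -0.04 and 0.02 over all genes. The Krüppel-like factor gene Klf2 fell 13.8-fold with CYT, from 48.3 to 3.50 CPM (log2 fold change -3.79 ± 0.20, edgeR adjusted p = 1.0e-09), and was 9.78-fold higher in primed than in unprimed challenged cells (3.29 ± 0.19, edgeR adjusted p = 2.3e-08). Ppp1r15a, which encodes the phosphatase subunit that reverses the phosphorylation of eIF2α, went from 29.2 CPM in untreated to 274 CPM in CYT and 37.2 CPM in IL-1βlow + CYT cells. Its log2 fold changes were 3.23 ± 0.12 (edgeR adjusted p = 3.5e-11) and -2.88 ± 0.11 (edgeR adjusted p = 1.4e-09). The growth arrest gene Gadd45b took the same course at 7.52, 58.4 and 8.41 CPM, with log2 fold changes of 2.96 ± 0.24 (edgeR adjusted p = 1.1e-07) and -2.79 ± 0.24 (edgeR adjusted p = 5.2e-07).

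The kinase cascade upstream of AP-1 was represented by 35 genes, 33 of them tested. With CYT, 3 were called higher and 1 lower, and 3 were lower in primed than in unprimed challenged cells with none higher, with list medians of 0.23 and -0.20. Over all genes these shares were 10.0%, 11.6%, 5.92% and 6.54% in the same order, so that the counts of the list with CYT were near or under them. Without CYT replicate 1 the count of genes higher with CYT was 6. Map3k8, an activating kinase of the ERK pathway, averaged 1.28 CPM in untreated, 23.5 CPM in CYT and 8.17 CPM in IL-1βlow + CYT libraries, and the p38 effector kinase gene Mapkapk2 was at 105, 665 and 192 CPM. Their log2 fold changes with CYT were 4.19 ± 0.25 (edgeR adjusted p = 3.9e-09) and 2.66 ± 0.10 (edgeR adjusted p = 3.5e-11). Between the challenged groups they were -1.52 ± 0.20 (edgeR adjusted p = 2.6e-05) and -1.79 ± 0.09 (edgeR adjusted p = 1.0e-08). Map3k4 rose with CYT (1.41 ± 0.09, edgeR adjusted p = 1.5e-08), and Srf, which encodes serum response factor, was lower in primed than in unprimed challenged cells (-1.12 ± 0.11, edgeR adjusted p = 1.6e-06).

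Of 17 MAP kinase phosphatases and feedback inhibitors, 16 were tested, with 2 called higher and 2 lower with CYT. Between the challenged groups 2 were higher and 1 lower in primed cells, and the list medians were -0.28 and -0.20. With 10.0% and 11.6% of all genes called with CYT and 6.54% and 5.92% between the challenged groups, the counts with CYT were near the share over all genes. Dusp5, an ERK phosphatase, and Dusp10, a phosphatase of p38 and Jun kinases, fell with CYT by 1.86 ± 0.13 and 1.81 ± 0.16 on the log2 scale (edgeR adjusted p = 2.7e-08 and 2.7e-07). Both were higher in primed than in unprimed challenged cells, by 1.38 ± 0.13 and 1.41 ± 0.16 (edgeR adjusted p = 1.5e-06 and 7.2e-06). Dusp16, another phosphatase of Jun kinases, went the other way, with a rise of 1.62 ± 0.11 (edgeR adjusted p = 2.3e-08) and a difference of -1.38 ± 0.11 (edgeR adjusted p = 3.6e-07). The count of 2 higher with CYT was 1 without CYT replicate 2 or 3, and the count of 1 lower in primed cells was 2 without CYT replicate 1 or IL-1βlow + CYT replicate 2.

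Genes known as targets of AP-1 in other cells formed a list of 27, of which 14 were tested. With CYT, 10 were called higher and 1 lower, beside 10.0% and 11.6% of all genes, with a list median of 1.79. Between the challenged groups none was higher and 8 were lower in primed cells, beside 6.54% and 5.92% of all genes, with a median of -1.24 (3 were lower with glmTreat, which tests for a change beyond the minimum). Ccl2 and Ptgs2 passed the filter only with the CYT libraries, and the list medians, which include both, are not independent of the filter. Of the other 12 tested genes, 8 were called higher and 1 lower with CYT and 7 lower in primed challenged cells. Lif, a cytokine gene, was at 2.21 CPM in untreated, 2.84 CPM in IL-1βlow, 73.6 CPM in CYT and 28.8 CPM in IL-1βlow + CYT cells, a rise of 33.3-fold with CYT (log2 fold change 5.06 ± 0.13, edgeR adjusted p = 1.3e-12). The chemokine gene Ccl2 had 0 counts in all untreated libraries and 1.22 CPM in CYT cells, which is at least 6.90-fold higher against the floor of 3 counts per library. Ptgs2, the inducible cyclooxygenase gene, averaged 0.274 CPM in untreated, 0.256 CPM in IL-1βlow, 3.11 CPM in CYT and 0.751 CPM in IL-1βlow + CYT cells, and is given with no test.

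Other targets that were lower in primed challenged cells were the heme oxygenase gene Hmox1, with a mean of 209 CPM after CYT alone and of 40.6 CPM after both treatments (-2.36 ± 0.21, edgeR adjusted p = 6.9e-07), and the growth factor gene Areg, at 6.31 and 1.66 CPM (-1.93 ± 0.29, edgeR adjusted p = 9.2e-05). Many of these targets also respond to NF-κB, STAT or Nrf factors, and the part of AP-1 in their levels was not tested. Jun and Junb stood above the untreated libraries in every challenged library, primed or not. For both, every IL-1βlow + CYT library was below all CYT libraries. The log2 differences were -0.85 for Jun, inside the fold change minimum, and -1.10 for Junb.

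All 13 genes of the Myc network, which holds the Max partners that antagonize Myc, were tested. With CYT, 3 were called higher and none lower, beside 10.0% and 11.6% of all genes, and 2 were lower in primed than in unprimed challenged cells, beside 5.92%. The list medians were -0.12 and 0.11. The repressor genes Mxd1 and Mnt rose with CYT by 1.74 ± 0.20 (edgeR adjusted p = 4.3e-06) and 1.57 ± 0.10 on the log2 scale (edgeR adjusted p = 5.4e-09). They were lower in primed challenged cells, at -1.29 ± 0.20 (edgeR adjusted p = 9.8e-05) and -1.30 ± 0.09 (edgeR adjusted p = 1.4e-07). Other members of the list fell with CYT inside the fold change minimum. Mxd3 was at -0.99 ± 0.17 (edgeR adjusted p = 1.3e-04), Mxd4 at -0.71 ± 0.11 (edgeR adjusted p = 9.7e-05) and Mga at -0.77 ± 0.14 (edgeR adjusted p = 2.6e-04). Mxi1 rose, also inside it, by 0.99 ± 0.15 (edgeR adjusted p = 4.2e-05). Zbtb17, which encodes a Myc-binding zinc finger protein, was higher with CYT (1.11 ± 0.12, edgeR adjusted p = 2.0e-06), a call lost without CYT replicate 2 (0.99). The count of 0 lower with CYT was 1 without untreated replicate 2 or CYT replicate 2, and 1 gene was called higher in primed challenged cells without CYT replicate 2 or IL-1βlow + CYT replicate 3.

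Of 30 genes known as targets of Myc, chiefly of ribosome biogenesis and nucleotide and amino acid synthesis, 29 were tested. With CYT, 2 were called higher and none lower, beside 10.0% and 11.6% of all genes, with a list median of 0.24. In primed challenged cells 1 was lower than in unprimed ones, beside 5.92% of all genes, with a median of -0.14. Shmt2, the mitochondrial serine hydroxymethyltransferase gene, was at 81.5 CPM in untreated, 265 CPM in CYT and 101 CPM in IL-1βlow + CYT cells, with log2 fold changes of 1.70 ± 0.08 (edgeR adjusted p = 6.6e-10) and -1.39 ± 0.08 (edgeR adjusted p = 2.5e-08). Odc1, which encodes the first enzyme of polyamine synthesis, rose by 1.27 ± 0.08 with CYT (edgeR adjusted p = 7.2e-09). Without CYT replicate 1 a further target was called lower in primed cells, which made 2.

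**Figure D4:**
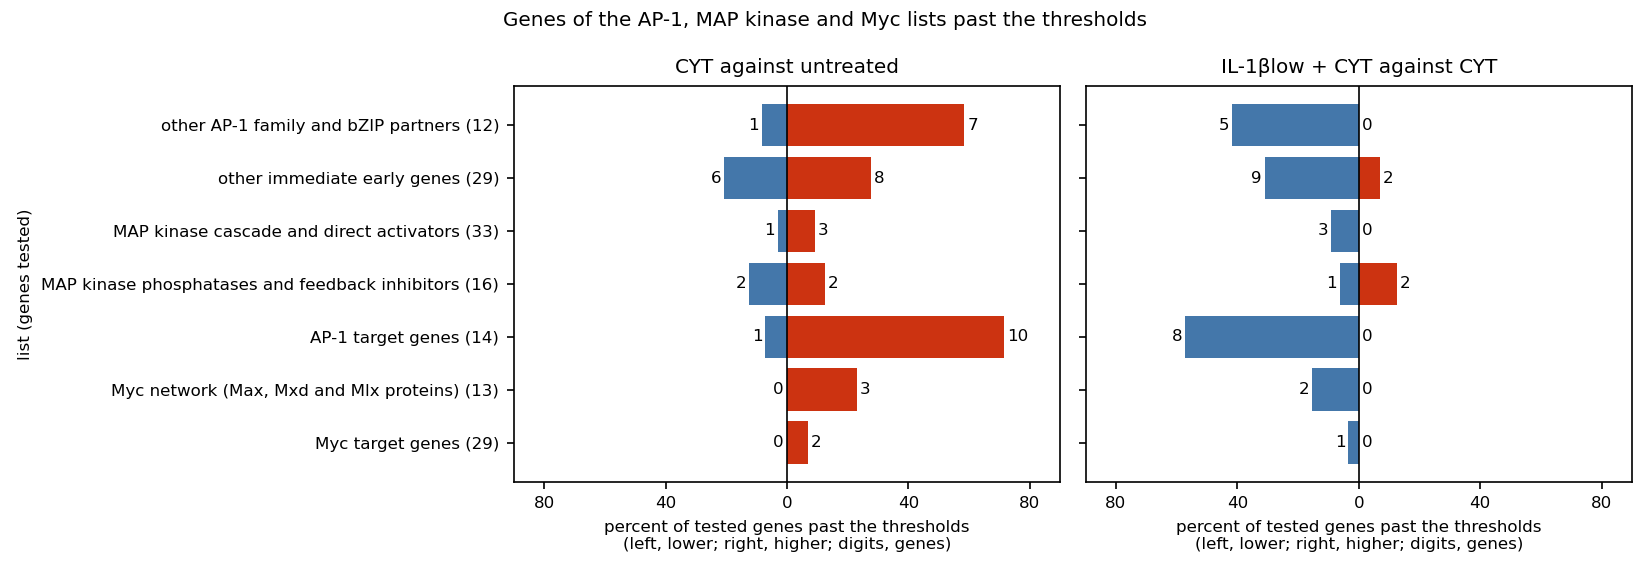
Percent of the tested genes of each list (y axis, number tested in parentheses) called lower (left of 0) and higher (right of 0) with CYT and in IL-1βlow + CYT against CYT cells, with the number of genes beside each bar. The AP-1 target list had 10 higher with CYT and 8 lower in primed cells, and the Myc target list had 2 and 1. Of the AP-1 targets, Ccl2 and Ptgs2 passed the filter only with CYT libraries, and the other 12 tested had 8 and 7. Of the AP-1 partners, Batf, Batf2 and Maf did so, and the other 9 tested had 5 and 4. No Myc target did so.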

How the data were processed

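INS-1E libraries were made by the authors with a TruSeq kit, checked with FastQC, trimmed, aligned with Rsubread to mRatBN7.2 and summarised with featureCounts. The deposited values are raw counts per gene symbol, and the settings for strand and multi-mapping reads are not given in the sources used here. From these counts, edgeR 4.0.16 (R 4.3.3) was used to keep genes above 1 CPM in at least 2 libraries, scale by TMM and fit all 12 libraries with 1 coefficient per group (8 residual degrees of freedom, common biological coefficient of variation 0.123). SE is the absolute log2 fold change divided by the root of F, and 95% intervals use the moderated degrees of freedom. Where the study used the exact test, the quasi-likelihood test was used here because it carries the uncertainty of the dispersion.

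The 10 genes, the lists and the markers were chosen with earlier results of these data known. The genes named were the 10, the 3 genes of each list with the highest absolute log2 fold change among those called in CYT against untreated and in IL-1βlow + CYT against CYT cells, and the 3 genes of highest Pearson r (log2 CPM, prior count 2, mean log2 CPM above 2) with each of the 10 genes called in a comparison. Some other list genes were named for how they passed the filter or for balance within their list. Within a group, the chi-square of 2 libraries' counts was 6.67 to 25.3 times its degrees of freedom, and each library counted as 1 replicate. Rn45s took 6.89 to 11.1% of the counts, and mitochondrial mRNA 1.69 to 2.67% in CYT and 2.24 to 4.25% in the other libraries. The fit was tested on simulated data. Alternatives covered scaling, test (DESeq2 1.42.0, exact test, glmTreat), filter, threshold, a replicate block, groups in the fit, and leaving out each library.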

Additional observations from a re-analysis of the deposited data

Results flagged for a closer look

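The effect of CYT differed between primed and unprimed cells for 4 of the 9 tested genes, by edgeR's interaction test. The same test called 10.7% of all genes, 5.20% with a lower and 5.48% with a higher effect in primed cells. The log2 difference of the CYT effect with and without IL-1βlow was -1.77 for Fosl2, -1.16 for Jun, -1.13 for Junb and -2.49 for Myc. With glmTreat, where the null is a change up to the minimum, only Myc of these was still called, beside 182 of all 14324 genes. With 3 libraries a group, no single library was tested as standing apart.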

How the results depend on the processing

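Counts of the genes called were 0 for IL-1βlow against untreated, 5 for CYT against untreated, 3 for IL-1βlow + CYT against untreated, 3 for IL-1βlow + CYT against CYT, 4 for IL-1βlow + CYT against IL-1βlow, 5 for CYT against IL-1βlow and 4 for the interaction. With glmTreat, which is stricter by construction, they were 0, 4, 1, 1, 2, 4 and 1 in the same order. At an adjusted p under 0.05 with no fold change minimum they were 0, 7, 5, 7, 6, 7 and 6. Without 1 library they ranged from 0 to 0, 4 to 6, 3 to 4, 3 to 4, 3 to 4, 5 to 5 and 4 to 4 in the order above. With the replicate number as a block they were 0, 5, 3, 3, 4, 5 and 4, so that the block moved none of them. Same-numbered libraries tended to deviate together, with a mean r of 0.191 beside -0.094 for differently numbered pairs. This held in part of the pairs (13 of 18 with r above 0.1, r from -0.188 to 0.520), and 9 of 12 libraries correlated best with their own number. The labels do not say that these libraries were grown together, and the main fit did not take the numbers as pairs. Over all genes the block raised the calls of IL-1βlow against untreated from 62 to 141. That count was 139 with DESeq2, 138 with the exact test, 10 with glmTreat, 229 with no filter, 193 at an adjusted p under 0.05 with no fold change minimum, and 16 to 88 without 1 library. With glmTreat the counts over all genes fell from 3096 to 1404, 858 to 353, 1785 to 457, 556 to 229, 2731 to 1222 and 1530 to 182 in the order of the other 6 comparisons, and with no fold change minimum they were 8926, 3124, 7267, 1855, 8363 and 5337. The sign turned for Egr1 in IL-1βlow against untreated (0.0022 with no filter), in IL-1βlow + CYT against CYT (0.012 with Rn45s left out) and in the interaction (-0.027 with RLE factors, -0.026 with DESeq2, -0.047 with no filter, -0.013 with at least 10 counts in every library). Without 1 library the values that changed sign ranged from -0.14 to 0.14, -0.24 to 0.17 and -0.22 to 0.20 for these, and in IL-1βlow against untreated from -0.044 to 0.11 for Junb, -0.019 to 0.083 for Jund and -0.23 to 0.26 for Myc. Ier3 with CYT also missed the fold change minimum with total counts (0.99) and with Rn45s left out (1.00), Jun in IL-1βlow + CYT against untreated passed with no filter (1.01), and Fos between the challenged groups passed with the exact test and with no filter (adjusted p = 0.0053 and 0.0055). The list alternatives were chosen after seeing the data, and of the log2 fold changes of named list genes over all 12 libraries 364 kept their call and 11 lost it, the latter all with glmTreat. With glmTreat the genes lower in primed challenged cells were 3 in place of 5 for the AP-1 partners, 2 in place of 9 for other immediate early genes, 1 in place of 3 for the kinase cascade and 3 in place of 8 for the AP-1 targets. Without 1 library 452 kept it and 4 lost it (Ptgs2 between the challenged groups and Zbtb17). Fos, Fosb and Fosl1 gave no value with at least 10 counts in every library. The causes were not tested. Fos, Fosb and Fosl1 rest on few counts. Changes in them could go uncalled at this depth, also beyond the fold change minimum, as with Fos between the challenged groups.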

Other observations

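The balance of the AP-1 family shifted between groups in summed levels. The Fos type genes together were at 27.0 ± 3.15 CPM in untreated, 31.1 ± 8.88 CPM in IL-1βlow, 27.6 ± 2.71 CPM in CYT and 10.8 ± 1.48 CPM in IL-1βlow + CYT cells (SD, n = 3). The Jun type genes were at 155 ± 8.27, 163 ± 7.47, 395 ± 34.1 and 234 ± 20.8 CPM. The ratio of Jun type to Fos type counts was between 4.44 and 7.47 in the libraries that received no CYT, between 13.8 and 14.8 in CYT and between 17.5 and 27.5 in IL-1βlow + CYT libraries, so that these ranges did not overlap. The CYT libraries had high Jun type sums. The IL-1βlow + CYT libraries had both low Fosl2 and Jun type sums (213 to 254 CPM) above those of untreated libraries (146 to 162 CPM). No test was made of the ratio, which is not corrected for transcript length.

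Myc varied with the replicate number among cells without CYT. Replicate 2 was the lowest of the untreated libraries (16.9 CPM) and of the IL-1βlow libraries (18.5 CPM), and within each number the log2 ratio of IL-1βlow to untreated cells was -0.06, 0.13 and 0.07. The log2 ratio of CYT to untreated cells of the same number was 1.47, 3.03 and 1.86. The labels do not say that libraries of the same number were grown together.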
